A study of Mus musculus with 8 samples.

Results

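The 10 genes described here encode the main factors and receptors of blood and lymph vessel growth. They are the ligands Vegfa and Vegfc with their receptors Kdr, Flt1 and Flt4, the ligands Angpt1 and Angpt2 with their receptor Tek, the vessel-constricting peptide Edn1, and the endothelial surface protein Pecam1. They were taken by gene symbol from a table of read counts for 45583 symbols in the ovary of the mouse. All 10 were in the table, and all 10 passed the filter on low counts that left 16601 genes for testing. The ovaries came from 3-week-old female mice on the C57/Bl6 background, and the labels give no treatment. 4 libraries are labelled WT (animals 1118, 1119, 1120 and 1121) and 4 are labelled GOAT KO (animals 1139, 1140, 1141 and 1146). GOAT (ghrelin-O-acyltransferase) attaches the fatty acid that makes acyl ghrelin from the gut hormone ghrelin, and mice of both genotypes were bred as littermates from parents heterozygous for its deletion. The comparison asks whether the expression of these genes differed between ovaries labelled WT and GOAT KO.

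In growing follicles, granulosa and theca cells make VEGF-A, which binds Kdr (VEGFR2), the main signalling receptor of blood endothelium, and Flt1 (VEGFR1), which also exists as a secreted trap for the ligand. VEGF-C acts mainly through Flt4 (VEGFR3), on lymphatic and growing endothelium. Angiopoietin 1 activates the endothelial receptor Tek (TIE2) and steadies vessels, while angiopoietin 2, made largely by endothelial cells themselves, competes with it in many settings and loosens vessels for growth or regression. Vessels of the ovary lie in the theca and stroma, and the granulosa layer has none until ovulation. In RNA of a whole ovary, fewer cells of a type and less RNA per cell cannot be told apart.

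For 2 of the genes the reads that cross exon joints separate forms of the transcript, so the joints read are shown here. Vegfa lies on the minus strand of chr17:46016993-46032369 (GRCm38) and has 8 exons in its longest annotated coding transcript. Exon 5 can join exon 6, 7 or 8, and the forms differ in the exons that encode binding to heparin and matrix. In the joints below, the end of exon 5 is in lower case and the exon that follows it is in capitals.
Vegfa exon 5 to exon 6, intron at chr17:46022349-46024064: aacaaagccagaaaaAAAATCAGTTCGAGG
Vegfa exon 5 to exon 7, intron at chr17:46021123-46024064: aacaaagccagaaaaTCACTGTGAGCCTTG
Vegfa exon 5 to exon 8, intron at chr17:46018880-46024064: aacaaagccagaaaaATGTGACAAGCCAAG
Angpt1 lies on the minus strand of chr15:42424723-42676977 and was read with 2 ends of exon 4 that lie 3 bases apart. The capitals mark the 3 bases that the shorter form lacks.
Angpt1 exon 4 to exon 5, annotated, intron at chr15:42476506-42496226: tgcactaaagaagGTGttttgctaaaggg
Angpt1 exon 4 to exon 5, not annotated, intron at chr15:42476506-42496229: tgcactaaagaagttttgctaaaggg

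The gene counts summed to between 16147216 and 19481798 per library. Mboat4, the gene for GOAT (chr8:34115030-34125182, plus strand), had 1 count in each of WT 1118, 1119 and 1120 and 3 counts in WT 1121, but 5 to 8 counts per library labelled GOAT KO, which goes against the labels at very low counts. No read across a splice junction of Mboat4 was listed in any library. The sources used here do not say which part of the gene was deleted, so whether these counts check the labels is not known, and 135 of its exon bases lie under Gm39158 on the other strand. The groups are therefore named as the libraries labelled WT and GOAT KO.

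Of these genes, Vegfa was read most and Flt1 least once exon length was taken into account. Levels between genes were compared as CPM (counts scaled to library size, by the TMM method) divided by the kilobases of annotated exon, and the order below is that of the libraries labelled WT. The level per kilobase of Vegfa was 24.6 ± 5.28 (SD, n = 4), followed by Angpt2 at 14.7 ± 1.45, Pecam1 at 8.92 ± 0.902, Kdr at 6.70 ± 0.744 and Tek at 5.33 ± 0.371. From Vegfa to Tek, each gene's lowest WT library was above the highest WT library of the gene after it. The next 4 genes were Edn1 at 5.13 ± 1.5, Angpt1 at 4.36 ± 0.909, Flt4 at 4.35 ± 0.60 and Vegfc at 3.62 ± 0.246 CPM per kilobase. The ranges of neighbours in this stretch, Tek and Edn1 included, overlapped, so that their order is not resolved by 4 libraries. Flt1, at 1.58 ± 0.127 CPM per kilobase, stood below every library of the other 9 genes. In the libraries labelled GOAT KO the order of the first 5 genes was the same, although the ranges of Pecam1 (7.04 to 9.10) and Kdr (6.08 to 7.52) overlapped. The lower genes then ran Angpt1, Vegfc, Flt4, Edn1 and Flt1. Receptors of the same ligand were unequal, with Kdr above Flt1 per kilobase in each of the 8 libraries.

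**Figure D1:**
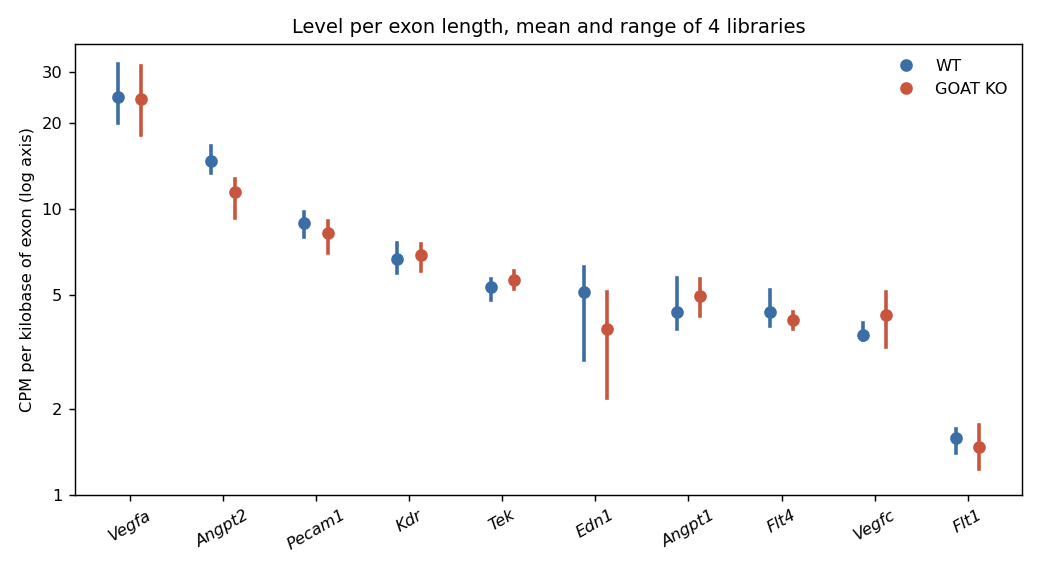
Level of each gene per kilobase of annotated exon (CPM per kilobase, log axis) in the libraries labelled WT and GOAT KO, with the mean of 4 libraries as a point and their lowest and highest as a line. Vegfa lies near 24 in both groups and Flt1 near 1.5, and Angpt2 is the gene whose group ranges (13.3 to 16.7 and 9.32 to 12.7) do not overlap.

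Between the groups, Angpt2 was the only one of the 10 genes to pass an unadjusted p under 0.05 with a log2 fold change beyond 0.3, and it was lower in the libraries labelled GOAT KO. By edgeR's quasi-likelihood test on all 8 libraries, 2.85% of all genes tested passed the same rule in either direction and 1.27% in the lower direction. At a log2 fold change beyond 0.5, passed by 1.67% of all genes, none of the 10 was called, and none passed after Benjamini-Hochberg adjustment over all genes, where 4 of 16601 genes did (0.0241%). Wherever the unadjusted p of a gene is given from all 8 libraries, its adjusted p was 0.983. The median log2 fold change of the 10 was -0.05, with 4 above 0, against -0.000349 over all genes tested. The study left out 1 library of each group without naming it. With the 6 libraries left when WT 1120 and GOAT KO 1139 are taken out, a choice made with earlier results of these data known, 3 of the 10 passed, Angpt2 and Edn1 lower and Vegfc higher, where 4.77% of all genes did. None of the 10 passed the adjustment there either, while 0.12% of all genes did.

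**Figure D2:**
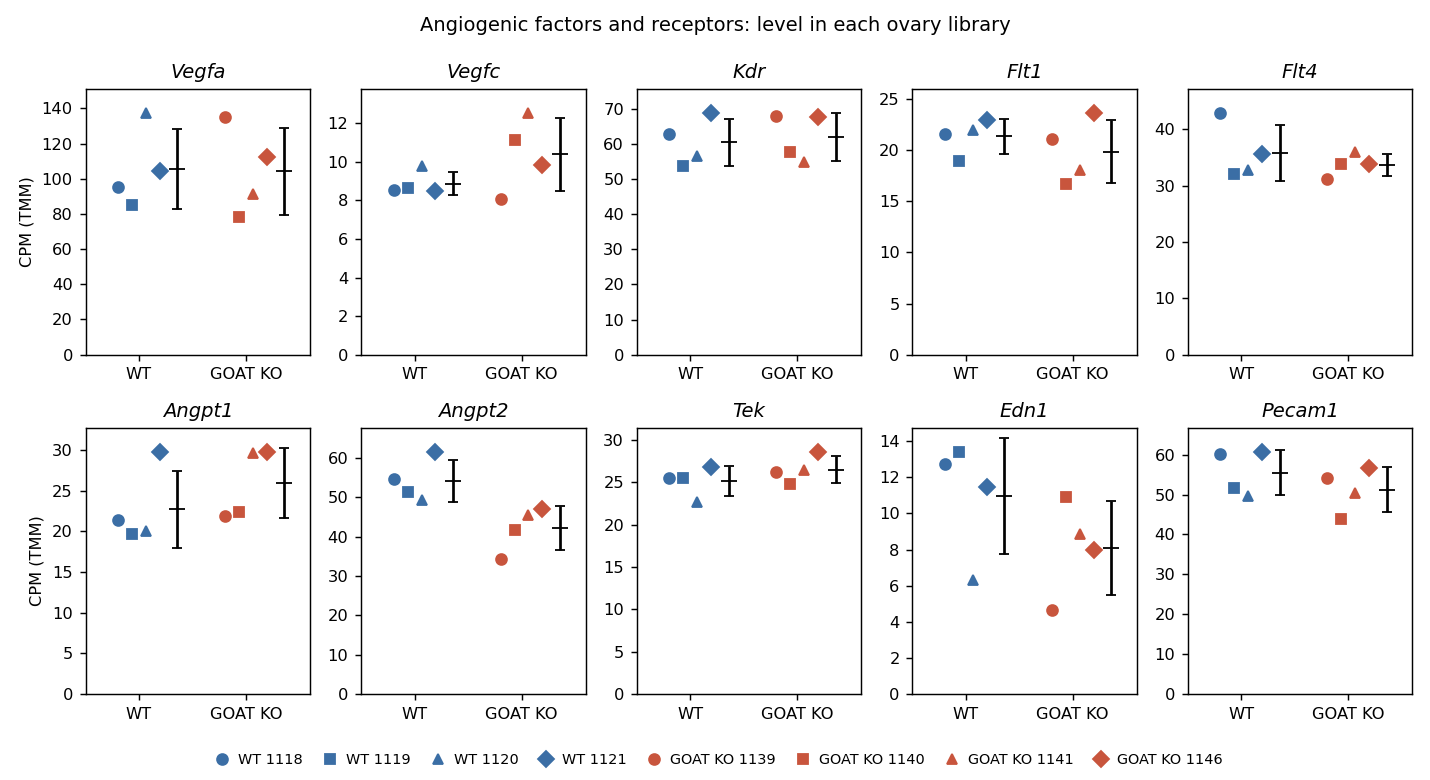
CPM of each gene in each library, with 1 panel a gene, a symbol for each animal, and the mean and SD of 4 libraries beside each group as a bar. In Angpt2 the 4 libraries labelled GOAT KO (34.4 to 47.0 CPM) sit below the 4 labelled WT (49.2 to 61.4 CPM), and in the other 9 genes the groups overlap.

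Of the 2 angiopoietin ligands, Angpt2 differed and Angpt1 did not pass the test. Angpt2 lies on the minus strand of chr8:18690263-18741562. It was read at 54.7, 51.3, 49.2 and 61.4 CPM in WT 1118, 1119, 1120 and 1121 and at 34.4, 41.6, 45.6 and 47.0 CPM in GOAT KO 1139, 1140, 1141 and 1146. The highest GOAT KO library was below the lowest WT library, which 1.27% of all genes tested also showed, and GOAT KO 1139 was the lowest. The log2 fold change was -0.36 ± 0.10 (SE, 95% interval -0.59 to -0.13, unadjusted p = 0.00554, adjusted p = 0.983), and a two-sided exact permutation test of the group means gave p = 0.0286, the smallest that 4 against 4 allows. The fold change was between -0.42 and -0.28 when any 1 library was left out. It came to -0.28 (unadjusted p = 0.0108, adjusted p = 0.947) without GOAT KO 1139 and to -0.30 (unadjusted p = 0.0207, adjusted p = 0.982) without WT 1121, both short of the 0.3 used for a call. The summed CPM of 6 fat cell markers was 365 in GOAT KO 1139 and 8.98 to 23.7 in the other 7 libraries, and its part in the Angpt2 value of that library was not tested.

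Angpt1, the opposing ligand, was higher in 1 WT and 2 GOAT KO libraries than in the rest. It stood at 21.4, 19.7, 19.98 and 29.7 CPM in WT 1118, 1119, 1120 and 1121 and at 21.9, 22.4, 29.6 and 29.7 CPM in GOAT KO 1139, 1140, 1141 and 1146. The groups overlapped (log2 fold change 0.19 ± 0.15, unadjusted p = 0.235, edgeR). Without WT 1121, the 1 high WT library, the log2 fold change was 0.35 (unadjusted p = 0.0232, adjusted p = 0.982). The annotation places 737 exon bases of Angpt1 under a gene of the opposite strand, Gm17473, and the sources used here do not say whether the counting used strand.

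Tek, the receptor of both ligands (chr4:94739289-94874976, plus strand), was among the steadiest of the 10. Its 4 libraries labelled WT ran from 22.7 to 26.8 CPM and those labelled GOAT KO from 24.7 to 28.5 CPM. The log2 fold change was 0.08 ± 0.08 (95% interval -0.09 to 0.25), so a change of the size seen in Angpt2 lies outside its interval.

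Ratios of counts in the same library do not depend on how libraries are scaled. The ratio of Angpt2 to Angpt1 was 2.07 to 2.60 in the libraries labelled WT and 1.54 to 1.86 in those labelled GOAT KO, a difference of -0.56 in mean log2 ratio. The groups did not overlap, and 0.831% of all genes, set over Angpt1 in the same way, had every GOAT KO library below every WT library. The ratio of Angpt2 to Tek was 2.01 to 2.29 in WT and 1.31 to 1.72 in GOAT KO, a log2 difference of -0.44, and the share of all genes with such a separation over Tek was 2.92%. The differences remained between -0.64 and -0.53 for Angpt2 to Angpt1, and between -0.49 and -0.36 for Angpt2 to Tek, when any 1 library was left out. These ratios share Angpt2 with the result above and are no separate evidence, and they were not tested. The ratios of Flt1 to Kdr, Vegfc to Flt4, Vegfa to Kdr and Edn1 to Pecam1 overlapped between the groups.

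**Figure D3:**
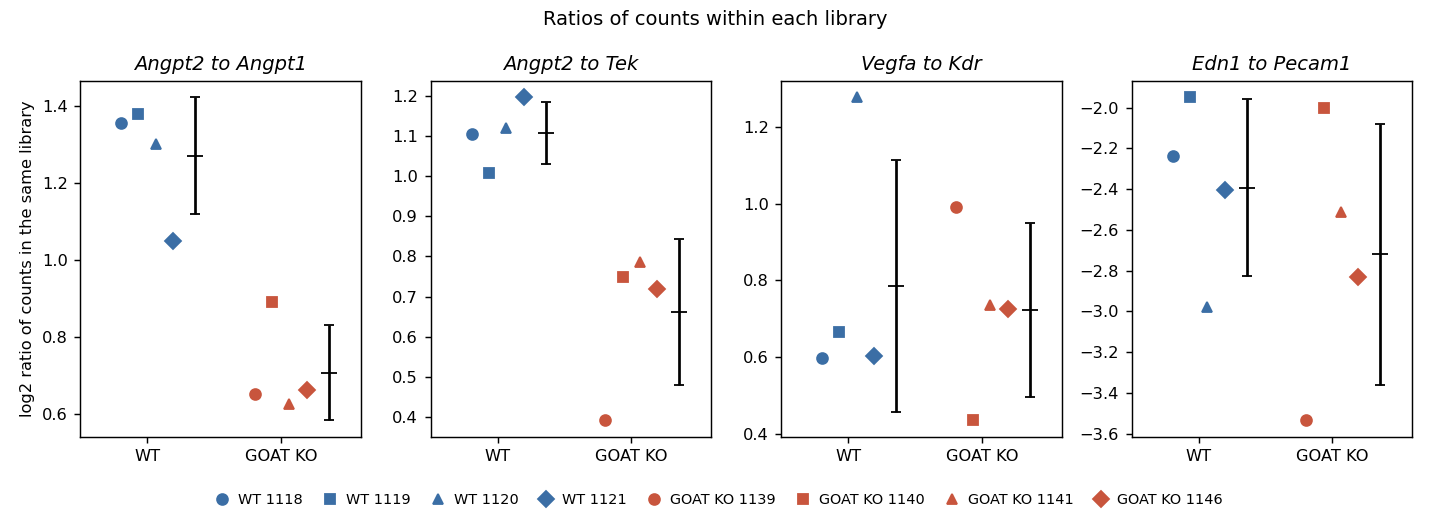
Log2 ratio of the counts of a pair of genes within each library, with symbols for the animals and the mean and SD of 4 libraries as a bar. Angpt2 to Angpt1 (WT 1.05 to 1.38, GOAT KO 0.62 to 0.89) and Angpt2 to Tek separate the groups, while Vegfa to Kdr and Edn1 to Pecam1 overlap and have WT 1120 and GOAT KO 1139 at their ends.

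The genes whose log2 CPM followed Angpt2 most closely over the 8 libraries were Mpeg1 (Pearson r = 0.969), Gm7209 (r = 0.946) and Pcdhb22 (r = 0.945), given as a description over libraries that share the same depth and groups. Mpeg1, a gene of macrophages, was at 15.5 to 21.6 CPM in WT and 9.03 to 16.3 CPM in GOAT KO. Of 7 leukocyte markers 5 were tested and 1 was called, Adgre1, the macrophage surface protein F4/80, which was lower in GOAT KO (log2 fold change -0.36 ± 0.11, unadjusted p = 0.0093). The groups of Adgre1 did not overlap, as was also so for 1.27% of all genes in this direction, and 2.85% of all genes were called in either. Of the other tested markers of the list, Csf1r, the receptor of macrophage growth, was at 15.7 ± 4.30 and 15.1 ± 0.932 CPM, Cd68 at 11.5 ± 1.67 and 9.22 ± 1.90 CPM, Ptprc at 4.25 ± 1.39 and 3.57 ± 0.328 CPM, and Itgam at 1.36 ± 0.35 and 1.66 ± 0.287 CPM, and in each the groups overlapped. The 7 markers summed to 33.3 to 48.1 CPM in WT and 32.1 to 38.3 CPM in GOAT KO, and the T cell gene Cd3e and the B cell gene Cd79a were too low to test. The part of these cells in the Angpt2 difference was not tested.

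Neither VEGF ligand passed the test with all 8 libraries. Vegfa was read at 95.1, 85.2, 137 and 105 CPM in WT 1118, 1119, 1120 and 1121 and at 135, 78.0, 91.4 and 112 CPM in GOAT KO 1139, 1140, 1141 and 1146. Both groups were spread widely and overlapped, with WT 1120 and GOAT KO 1139 highest. The log2 fold change was -0.02 ± 0.18 (95% interval -0.41 to 0.37), and its sign turned when WT 1120, GOAT KO 1140 or GOAT KO 1141 was left out, with values from -0.17 to 0.13.

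Vegfc (chr8:54077606-54187096, plus strand), the lymphatic growth factor, had 8.55, 8.67, 9.77 and 8.51 CPM in WT 1118, 1119, 1120 and 1121. The values for GOAT KO 1139, 1140, 1141 and 1146 were 8.08, 11.1, 12.5 and 9.82 CPM. 3 of the 4 libraries labelled GOAT KO were above all WT libraries and GOAT KO 1139 was below them. With all 8 libraries the log2 fold change was 0.23 ± 0.14 (unadjusted p = 0.121). Without GOAT KO 1139 it was 0.33 (unadjusted p = 0.0194, adjusted p = 0.970), and with WT 1120 left out as well it was 0.38 ± 0.13 (unadjusted p = 0.0114, adjusted p = 0.438). Its 3 nearest genes by Pearson r were Gm16740 (0.964), 3000002C10Rik (0.953) and Gm6728 (0.950).

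The VEGF receptors did not pass the test in the 8 or the 6 libraries. Kdr (chr5:75932827-75978458, minus strand) was read at 62.9, 53.8, 56.6 and 68.9 CPM in WT 1118, 1119, 1120 and 1121 and at 67.9, 57.7, 54.9 and 67.8 CPM in GOAT KO 1139, 1140, 1141 and 1146. The groups covered nearly the same range, with a log2 fold change of 0.04 ± 0.10 (95% interval -0.18 to 0.25). Its sign turned in the 6 libraries, to -0.04. The genes closest to Kdr over the libraries were S1pr3 (r = 0.968), a receptor for the lipid sphingosine 1-phosphate, Ptprm (0.961), a receptor phosphatase of endothelial contacts, and Kif21b (0.960).

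Flt1 (chr5:147561604-147726011, minus strand) ranged from 18.9 to 23.0 CPM in WT and from 16.7 to 23.7 CPM in GOAT KO. Flt4 (chr11:49609263-49652739, plus strand), the receptor of lymphatic endothelium, ranged from 32.1 to 42.9 CPM in WT and from 31.2 to 36.0 CPM in GOAT KO. Both overlapped, with log2 fold changes of -0.11 ± 0.11 and -0.09 ± 0.10. The highest value of Flt4 was that of WT 1118, and without it the log2 fold change was 0.01.

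Edn1 (chr13:42301476-42307990, plus strand), which encodes endothelin 1, a constrictor of vessels, had the largest log2 fold change of the 10 and the widest error. It was read at 12.8, 13.4, 6.31 and 11.4 CPM in WT 1118, 1119, 1120 and 1121, from counts of 206, 241, 115 and 210. In GOAT KO 1139, 1140, 1141 and 1146 it was read at 4.67, 10.9, 8.86 and 7.96 CPM, from counts of 78, 179, 173 and 137. The lowest library of each group was WT 1120 or GOAT KO 1139, and 3 of the 4 WT libraries were above all libraries labelled GOAT KO. The log2 fold change was -0.44 ± 0.27 (95% interval -1.02 to 0.15, unadjusted p = 0.132) with all 8 libraries. With the 6 libraries without WT 1120 and GOAT KO 1139 it was again -0.44, with an SE of 0.14 (unadjusted p = 0.00881, adjusted p = 0.422). Leaving out WT 1120 alone gave -0.63 (unadjusted p = 0.0159, adjusted p = 0.432) and leaving out GOAT KO 1139 alone gave -0.25 (unadjusted p = 0.308, adjusted p = 0.970), so which library is left out decides the size and the call. Edn1 shares 35 exon bases with Gm47118 on the other strand.

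Among the genes that followed Edn1 most closely were Kcng4 (r = 0.979), a potassium channel subunit, and Arhgef3 (r = 0.970).

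Pecam1 (chr11:106654217-106750628, minus strand), present on all endothelium, was at 60.1, 51.7, 49.8 and 60.6 CPM in WT 1118, 1119, 1120 and 1121 and at 54.1, 43.8, 50.5 and 56.7 CPM in GOAT KO 1139, 1140, 1141 and 1146. The groups overlapped (log2 fold change -0.12 ± 0.10, 95% interval -0.33 to 0.10). In the 6 libraries its value was -0.19 ± 0.10 (unadjusted p = 0.0818, adjusted p = 0.567).

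**Figure D4:**
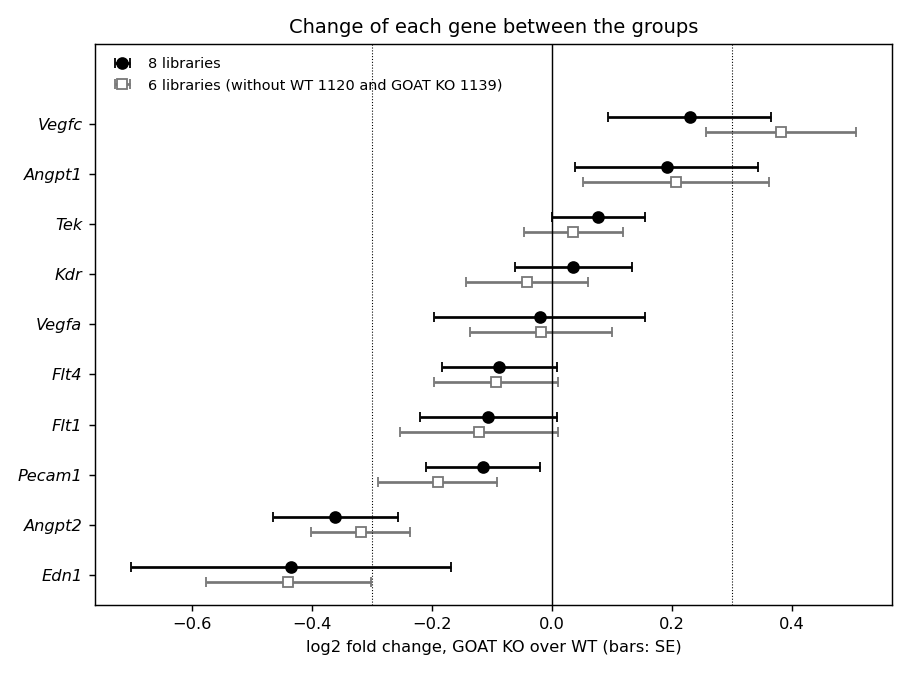
Log2 fold change of each gene, libraries labelled GOAT KO over those labelled WT, with its SE as a bar, for all 8 libraries (filled) and for the 6 without WT 1120 and GOAT KO 1139 (open). Dotted lines mark 0.3 in either direction. Angpt2 lies beyond the left line in both, at -0.36 and -0.32, and the bar of Edn1 shortens from 0.27 to 0.14.

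The endothelium as a whole was read from 22 markers. None of the 22 was called with all 8 libraries, beside 2.85% of all genes. Of these markers 10 were above 0 and 12 below, and their median log2 fold change was -0.02. Their summed level was 628 to 705 CPM in WT and 591 to 718 CPM in GOAT KO. Among the most abundant were the junction protein Cdh5 at 88.1 ± 12.6 and 81.2 ± 5.59 CPM (SD, n = 4), Eng, a co-receptor for TGF-beta, at 67.2 ± 4.11 and 68.4 ± 7.73 CPM, and Ptprb at 53.0 ± 6.46 and 55.9 ± 5.61 CPM. Cd34, a surface protein of endothelium and of some stromal cells, was at 98.3 ± 9.69 and 119 ± 16.4 CPM, with a log2 fold change of 0.27 ± 0.10 (unadjusted p = 0.0234), just under the 0.3 used for a call. With the 6 libraries 3 of the 22 were called, Cd34 higher and the transcription factors Erg and Sox18 lower, beside 4.77% of all genes.

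Genes around the angiopoietins and their receptors included 2 that were higher in GOAT KO among 6 tested, beside 2.85% of all genes called in either direction. Angptl1, an angiopoietin-related secreted protein, was at 25.6, 21.9, 14.3 and 20.3 CPM in WT 1118, 1119, 1120 and 1121 and at 35.5, 43.3, 34.8 and 20.3 CPM in GOAT KO 1139, 1140, 1141 and 1146. 3 of the 4 libraries labelled GOAT KO were above all WT libraries, and GOAT KO 1146 stood among the WT values (log2 fold change 0.71 ± 0.22, unadjusted p = 0.00825, adjusted p = 0.983, edgeR). The annotation places 465 exon bases of Angptl1 under Gm37802 on the other strand. Svep1, a matrix protein that binds angiopoietins and Tie1, ran from 8.51 to 11.2 CPM in WT and from 11.1 to 16.03 CPM in GOAT KO (log2 fold change 0.47 ± 0.13, unadjusted p = 0.00468), and 2244 of its exon bases lie under Gm26889 on the other strand. Tie1, the orphan partner of Tek, was at 36.1 ± 3.06 and 36.3 ± 3.12 CPM. Angptl2 and Angptl4 had log2 fold changes of 0.01 and -0.10 and were not called.

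Of 11 inhibitors of vessel growth, 1 was higher and 1 lower, beside 2.85% of all genes called in either direction. Thbs2, thrombospondin 2, was at 56.4, 59.7, 49.8 and 55.5 CPM in WT 1118, 1119, 1120 and 1121 and at 59.8, 70.3, 69.8 and 76.8 CPM in GOAT KO 1139, 1140, 1141 and 1146. The groups stood apart with GOAT KO higher, the nearest pair by 59.8 against 59.7 CPM, as 1.64% of all genes tested also showed (log2 fold change 0.32 ± 0.08, unadjusted p = 0.00304, adjusted p = 0.983, edgeR). Sema3f, a semaphorin that repels endothelial cells through Nrp2, ran from 11.4 to 13.4 CPM in WT and from 9.17 to 11.5 CPM in GOAT KO (log2 fold change -0.30 ± 0.11, unadjusted p = 0.0161). Thbs1, the most abundant of the list at 2305 ± 562 and 2191 ± 554 CPM, Serpinf1 and Adamts1 were not called. Col18a1, the precursor of endostatin, had a log2 fold change of 0.19 ± 0.07 (unadjusted p = 0.0210) and was short of 0.3.

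The remaining vascular lists held no called gene with all 8 libraries. These were 5 other VEGF ligands and receptors, 6 genes of the endothelin system, 9 genes that respond to VEGF or mark tip and stalk cells, 3 lymphatic markers, 13 markers of pericytes and vascular smooth muscle, 10 other growth factors and 17 genes of the hypoxia response. The VEGF co-receptors Nrp1 (110 ± 8.22 and 106 ± 19.8 CPM) and Nrp2 (119 ± 16.1 and 103 ± 8.53 CPM) overlapped between the groups. So did the endothelin receptors Ednra (97.7 ± 11.04 and 87.8 ± 7.14 CPM) and Ednrb (40.3 ± 1.70 and 40.5 ± 4.73 CPM), and Ece1, the enzyme that releases active endothelin (462 ± 26.0 and 456 ± 15.7 CPM). Among hypoxia genes, Hif1a was at 325 ± 2.46 and 309 ± 37.9 CPM and Ldha at 221 ± 41.2 and 231 ± 28.6 CPM. Prox1 and Lyve1, markers of lymphatic endothelium, were at 12.7 ± 2.28 and 12.4 ± 1.89 CPM and at 12.1 ± 0.876 and 12.7 ± 1.18 CPM. Over the 10 vascular lists, 4 of 100 tested genes were called (4%), 3 higher and 1 lower, beside 2.85% of all genes. With the 6 libraries 10 were called (10%), 6 higher and 4 lower, beside 4.77% of all genes.

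**Figure D5:**
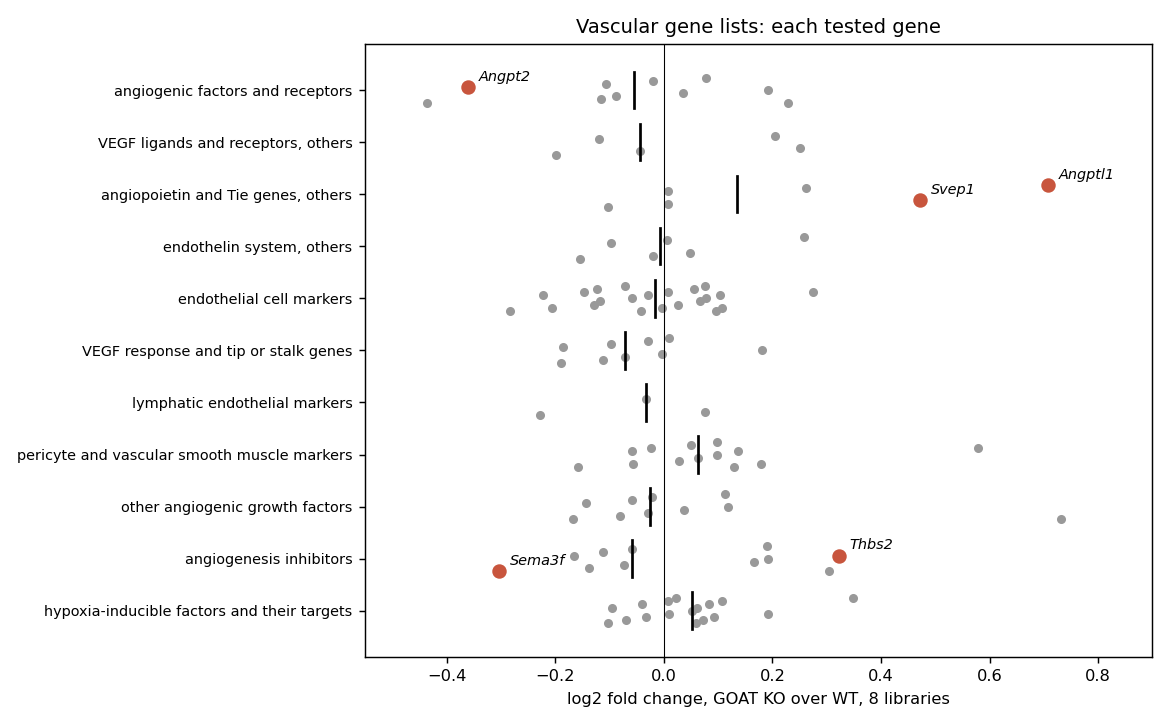
Log2 fold change of each tested gene, libraries labelled GOAT KO over those labelled WT, with all 8 libraries, in 1 line for each vascular list. Grey points were not called, red points passed an unadjusted p under 0.05 with a log2 fold change beyond 0.3, and black bars are list medians. The 5 called genes are Angpt2 among the angiogenic factors, Angptl1, Svep1, Thbs2 and Sema3f.

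Cells that neighbour vessels or make these ligands were read from the other lists, whose counts stand beside 2.85% of all genes called with all 8 libraries and 4.77% with the 6. The granulosa list had 2 called genes among 8, Fshr, the receptor for follicle-stimulating hormone (log2 fold change 0.47 ± 0.16), and the steroid enzyme Hsd17b1 (0.31 ± 0.12), both higher. With the 6 libraries 3 of the 8 were called, these and Inhbb, all higher. With all 8 libraries 6 of the granulosa genes were above 0 and 2 below, with a median log2 fold change of 0.11. Amh (393 ± 53.6 and 340 ± 43.0 CPM in WT and GOAT KO) and Foxl2 (54.6 ± 10.9 and 48.5 ± 13.6 CPM) had lower means in GOAT KO. None of 5 theca genes was called with all 8 libraries, and 1, Cyp11a1, was higher with the 6. All 8 oocyte genes had log2 fold changes above 0, with a median of 0.12, beside 8282 of 16601 over all genes tested. In each of the 8 the groups overlapped. Figla, 1 of these, was called higher with all 8 libraries and none with the 6. Krt7 among 6 genes of the surface epithelium was called lower, while 4 of the 6 were above 0 and 2 below, with a median log2 fold change of 0.05. Red blood cell markers, which follow the blood left in the tissue, summed to 146 to 591 CPM in WT and 160 to 336 CPM in GOAT KO. Striated muscle and oviduct lists had no called gene. All 5 tested fat markers (Adipoq, Plin1, Cidec, Cfd and Retn) were called higher with all 8 libraries and 1, Plin1, with the 6. The summed fat markers were at 365 CPM in GOAT KO 1139. They were at 16.8 to 23.7 CPM in the other libraries labelled GOAT KO and at 8.98 to 21.0 CPM in WT. The part of these cells in the results above was not tested.

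Reads across splice junctions give a second reading of the same libraries. The deposited junction lists hold 175 introns of the 10 genes, from 2083 reads in Kdr to 141 in Edn1. They leave out some introns that must have been read: of 33 introns with at least 80 reads over all libraries, 7 were not listed in at least 1 library. An intron that is not listed is therefore not a measured 0, and shares between alternative joints carry that error beside counting error. Of 9 introns of Angpt2, 4 were listed in all 8 libraries. Over these 4, WT 1118, 1119, 1120 and 1121 had 63, 68, 76 and 80 reads, or 3.90, 3.76, 4.20 and 4.33 CPM when scaled to the gene counts. GOAT KO 1139, 1140, 1141 and 1146 had 47, 53, 69 and 66 reads, or 2.81, 3.24, 3.54 and 3.81 CPM. GOAT KO 1146 was above WT 1119, so the groups overlapped on this scale (two-sided exact permutation p = 0.0571). Summed over all 9 introns, where an intron that is not listed counts as 0, they did not overlap (7.58 to 7.96 and 3.64 to 6.82 CPM). This sum holds both more reads and introns missing from some lists. Which of these the separation depends on was not tested. Edn1 was read with 12 to 31 junction reads per library labelled WT and with 7 to 24 per library labelled GOAT KO.

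In Vegfa, exon 5 was joined to exon 7 in 162 reads, to exon 8 in 91 and to exon 6 in 20, of 273 in all. Exon 5 to 7 thus took 59.3% (95% Wilson interval 53.4 to 65.0), exon 5 to 8 took 33.3% (28.0 to 39.1) and exon 5 to 6 took 7.33% (4.79 to 11.04). Exon 5 to 8 was listed with 27 and 15 reads in WT 1118 and 1119 and with 21 and 28 reads in GOAT KO 1140 and 1141, and in none of the other 4 libraries. Where it was listed, its share was 77.1% in WT 1118, 33.3% in WT 1119, 58.3% in GOAT KO 1140 and 57.1% in GOAT KO 1141. The pooled shares, their intervals and the test between the groups took an intron that is not listed as 0. They therefore do not settle which form was most common. Exon 5 to 7 was listed in all 8, with 4 reads in WT 1118 and 14 to 28 in the rest. The pooled share of exon 5 to 7 was 61.4% in WT and 57.4% in GOAT KO, and no share passed the test between the groups (two-sided exact permutation p = 0.83 for exon 5 to 7, adjusted p = 1 over the junction shares tested).

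Flt1 can end early in an intron after exon 13 and then encodes the soluble receptor, so its junction reads were split there. Of 217 reads on junctions of the transcript with 30 exons, 140 lay beyond exon 13, or 64.5% (95% Wilson interval 58.0 to 70.6), on 16 of the 17 junctions there. The other 77 reads belong to the stretch up to exon 13, which has 12 junctions. The share was not scaled to the number of junctions on each side, so it does not give the part of the soluble form. The joint of exon 13 to exon 14 was not listed in any library. WT 1118, 1119, 1120 and 1121 had shares of 58.6%, 68.0%, 74.2% and 65.9%, while GOAT KO 1139, 1140, 1141 and 1146 had 72.2%, 55.6%, 47.8% and 65.8%. The groups overlapped (two-sided exact permutation p = 0.343). The shares rest on 9 to 44 junction reads per library.

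In Angpt1, the end of exon 4 that is 3 bases shorter took 33 of 51 reads into exon 5, or 64.7% (95% Wilson interval 51.0 to 76.4). It lies outside the annotation used here, and both forms keep the reading frame. The shorter form was read in 3 WT and 3 GOAT KO libraries. In Pecam1 an intron that skips exon 12 and is also not annotated took 26 of 196 reads into exon 13, or 13.3% (9.22 to 18.7), and was listed in 6 of the 8 libraries. Further along, exon 16 of Pecam1 was reached from exons 13, 14 and 15 in 24, 33 and 22 reads, where the alternatives change the cytoplasmic tail. None of the 26 junction shares tested passed after adjustment, and the smallest exact permutation p was 0.0857, for Pecam1 exon 14 to 16.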

How the data were processed

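Ovaries of 4 WT and 4 GOAT KO mice were sequenced by the authors as single reads of 50 bases. Reads were aligned by the authors to mm10 (GRCm38) with TopHat2 2.0.14, and the deposited values are whole-number counts per gene symbol, without normalization. The deposited junction lists hold counts of reads across each intron. The counting tool and its use of strand are not given in the sources used here, so reads of overlapping genes can be split between them. The assembled transcripts (StringTie 1.0.4) and the percentages of reads mapped were not used here.

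Counts were scaled by TMM, filtered by filterByExpr (minimum count 10, total 15) and tested with edgeR 4.0.16 (quasi-likelihood, GOAT KO against WT) on all 8 libraries in R 4.3.3, adjusted by Benjamini-Hochberg over 16601 genes. The SE is the log2 fold change over the square root of F. The thresholds of p 0.05 with log2 fold changes of 0.5 and 0.3 follow the study's methods, which left out 1 library of each group without naming it. The 6 libraries without WT 1120 and GOAT KO 1139 are an alternative whose 2 libraries were chosen with earlier results of these data known, and the sources used here do not state that the study left out the same ones. DESeq2 1.42.0, limma-voom 3.58.1, RLE size factors, library size alone, no filter, and each library left out in turn were the others. The edgeR, DESeq2 and limma-voom fits were tested on simulated data. Exon lengths, positions and joint sequences come from GENCODE vM21 of the same build, a later release than the authors used. Joints were compared where introns of a gene shared an end with at least 20 reads in all and 5% or more for each. The p values measure the spread between these libraries, each numbered by animal, and no 2 libraries of a group agreed within sampling noise. Counting intervals cover counting error only.

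The genes and lists were chosen with earlier results of these data known, so no list is independent evidence. Named are the 10 genes, list genes called with all 8 libraries, up to 4 of the most abundant others of a list, the 3 genes closest to Kdr, Vegfc, Angpt2 and Edn1, and Mboat4. 1 gene close to Edn1 is not reported here. Erg, Sox18, Inhbb, Foxl2, Cyp11a1, Adamts1, Lyve1 and the low markers were named after their values were seen.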

Additional observations from a re-analysis of the deposited data

Results flagged for a closer look

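In 34 groups of 4 values (the CPM of each gene, the 6 ratios and the summed fat markers, in WT and in GOAT KO) a library was asked to stand apart from the other 3 by Dixon's criterion, which chance meets in about 1 of 20 groups, or 1.7 here. It did so 6 times. Vegfc in WT 1120 was at 9.77 CPM against 8.51 to 8.67 CPM in the other WT libraries. Angpt1 in WT 1121 was at 29.7 CPM against 19.7 to 21.4 CPM. The log2 ratio of Vegfa to Kdr in WT 1120 was 1.28 against 0.60 to 0.66. The log2 ratio of Angpt2 to Angpt1 in GOAT KO 1140 was 0.89 against 0.62 to 0.66, and that of Angpt2 to Tek in GOAT KO 1139 was 0.39 against 0.72 to 0.79. The summed fat cell markers in GOAT KO 1139 were at 365.4 CPM against 16.8 to 23.7 CPM in the other libraries labelled GOAT KO.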

How the results depend on the processing

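The number of genes called beyond 0.3 was 473 with all 8 libraries, 918 without a filter on low counts and 793 with the 6 libraries, and 382 to 866 with 1 library left out, the highest without WT 1120. Beyond 0.5 it was 278, and 691 without a filter and 231 to 437 with 1 library left out, again highest without WT 1120. At an adjusted p under 0.05 it was 4, and 7 without a filter, 13 by DESeq2, 20 with the 6 libraries and 3 to 14 with 1 left out, the 14 without GOAT KO 1139. Of the 10 genes, 1 was called with all 8, 3 with the 6 libraries and 1 or 2 with 1 left out. Angpt2 was that gene under RLE size factors, library size alone, no filter, DESeq2 and limma-voom, with log2 fold changes of -0.37 to -0.36. With 1 library left out Angpt2 was called in 6 of 8 fits, with Edn1 added without WT 1120. Without WT 1121 the called gene was Angpt1 (0.35) and without GOAT KO 1139 it was Vegfc (0.33). In the vascular lists together 4 genes were called with 8 libraries and 10 with the 6. The signs of Vegfa (-0.17 to 0.13), Kdr (-0.021 to 0.10) and Flt4 (-0.14 to 0.0087) turned as single libraries were left out, and that of Kdr also with the 6 libraries (-0.042). The difference in percentage points of the Vegfa exon 5 to 6 share turned to -1.21 with the 6 libraries. Those of exon 5 to 8 (-8.57 to 17.8), exon 5 to 7 (-23.8 to 5.74) and the Pecam1 exon 12 skip (-0.85 to 8.67) turned as single libraries were left out. Asking for 50 reads in place of 20 could not change the named junction differences, which all rest on 51 reads or more. The cause of these changes was not tested. No paired analysis was possible because the groups share no animal number. Scaling moved the median of all genes by under 0.003 on the log2 scale. Junction readings rest on few reads per library, 6 to 40 in Vegfc, 7 to 31 in Edn1 and 9 to 44 in Flt1.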

Other observations

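The genes closest to Vegfa over the 8 libraries, a list added after the values were seen, were Tppp3 (Pearson r = 0.993), Slfn14 (r = 0.986) and Tor1aip1 (r = 0.981), as a description over 8 libraries of similar depth. Tppp3 was at 11.96, 10.5, 20.2 and 12.9 CPM in WT 1118, 1119, 1120 and 1121 and at 18.9, 8.49, 11.4 and 14.4 CPM in GOAT KO 1139, 1140, 1141 and 1146. Cyp19a1, the aromatase of granulosa cells that marks large follicles, was also looked up after the values were seen. It was at 6.57, 5.06, 65.0 and 9.70 CPM in WT 1118, 1119, 1120 and 1121 and at 45.2, 6.84, 17.7 and 31.6 CPM in GOAT KO 1139, 1140, 1141 and 1146. The 3 libraries with the most Cyp19a1, WT 1120, GOAT KO 1139 and GOAT KO 1146, were also the 3 with the most Vegfa (137, 135 and 112 CPM), and WT 1120 and GOAT KO 1139 were the 2 with the least Edn1 (6.31 and 4.67 CPM). These libraries come from both groups, and no test was made of the relation.

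Angptl4, a secreted relative of the angiopoietins that responds to fasting and low oxygen, was at 93.0, 85.0, 136 and 124 CPM in WT 1118, 1119, 1120 and 1121 and at 119, 79.7, 75.9 and 134 CPM in GOAT KO 1139, 1140, 1141 and 1146. Its 4 highest libraries included the 3 highest of Vegfa. Among list genes short of a call with all 8 libraries but called with the 6, Pdgfrb, the receptor of pericytes, was at -0.31 (unadjusted p = 0.00433, adjusted p = 0.376) on the log2 scale by edgeR, against -0.16 (unadjusted p = 0.182, adjusted p = 0.983) with all 8, and Angpt4 was at 0.38 (unadjusted p = 0.0469, adjusted p = 0.525) against 0.26 (unadjusted p = 0.133, adjusted p = 0.983).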
